A study of Bos taurus with 15 samples.

Results

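Stromal cells of the adult cow intestine were selected on measured values, as barcodes with 500 to 4000 genes, under 50000 UMIs, at least 3 UMIs of *COL1A2*, and 0 UMIs of both *PTPRC* and *EPCAM*, in the AD duodenum, jejunum, cecum, and colon libraries. A UMI, or unique molecular identifier, counts 1 captured RNA molecule. *COL1A2* encodes the alpha 2 chain of type I collagen, *PTPRC* the leukocyte antigen CD45, and *EPCAM* an adhesion molecule of epithelial cells. The gate held 177 of the 40458 AD barcodes with 500 to 4000 genes and under 50000 UMIs (kept barcodes), of 172405 barcodes in the 15 libraries of the series. The same gate held 4207 of 32787 kept barcodes in the newborn (NB) libraries of the same 4 tissues, which served for comparison. Because these 3 genes chose the cells, their levels are no result.

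The study compared cattle tissues at the NB and AD stages with 10x Genomics 3′ scRNA-seq, in Holstein dairy cattle. All 4 AD tissues were taken from 1 cow in lactation, and the sources used here do not say which calf gave which NB library. The outer muscle layers were removed at both stages. AD duodenum and cecum were digested with the Lamina Propria Dissociation Kit for 30 min, AD jejunum and colon with the Multi Tissue Dissociation Kit 2 for 41 min, and NB intestine was treated with EDTA and trypsin before a lamina propria kit was used. Red blood cell lysis is described for the AD tissues, and no sort by cell type is stated. No allele or drug distinguished the groups, and each tissue and stage had 1 library, so stage, animal, and dissociation cannot be told apart and no test was made. Levels are given in CPM, the UMIs of a gene in the summed gate cells of a library, scaled to a common library total. Values in parentheses are 95% intervals, exact for Poisson counts or their ratio and Clopper-Pearson for shares, and they cover counting error only.

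Under the intestinal epithelium, fibroblasts lay down collagens, elastic fibers, and proteoglycans, and supply the Wnt ligands, BMPs, and antagonists of both that pattern crypts and villi. Subepithelial myofibroblasts, or telocytes, are rich in BMPs and *PDGFRA*. Fibroblasts around the vessels and below the crypts provide Wnt agonists and BMP antagonists. Lymphoid stromal cells guide lymphocytes with chemokines, and smooth muscle cells and pericytes share collagen genes with these cells. Fibroblasts are also a source of complement components and of chemokines such as *CCL11* (eotaxin), which attracts eosinophils.

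Few stromal cells were recovered from the AD libraries. The gate held 0 of 10380 kept barcodes in AD duodenum, which allows a share of up to 0.0289% at a limit of 3 counts and has an upper Clopper-Pearson bound of 0.0355%. In AD jejunum it held 31 of 11082, 0.28% (0.19 to 0.397%), in AD cecum 4 of 9651, 0.0414% (0.0113 to 0.106%), and in AD colon 142 of 9345, 1.52% (1.28 to 1.79%). In the NB libraries the share was 5.36% (4.89 to 5.86%) in duodenum, 18.9% (18.3 to 19.6%) in jejunum, 16.9% (16 to 17.8%) in cecum, and 3.98% (3.44 to 4.57%) in colon. Each NB share lay above the AD share of its tissue, and the intervals did not overlap. Barcodes with *PTPRC* made up 43.5 to 66.9% of the kept AD barcodes and 6.28 to 26.4% of the NB ones, counting those with at least 2 UMIs of *PTPRC* and 0 of *EPCAM*, so a share is also a statement about the other cells in the suspension. The 2 AD libraries made with the Multi Tissue kit held 173 of the 177 cells, and kit and tissue cannot be told apart.

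**Figure D1:**
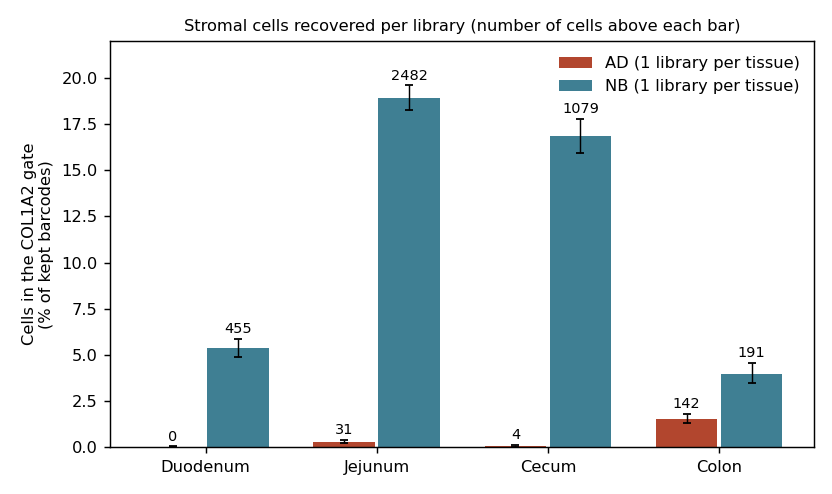
Bars give the share of kept barcodes in the *COL1A2* gate (%), by tissue for the AD (red) and NB (blue) libraries, 1 library each, with Clopper-Pearson intervals and the number of cells above each bar. AD shares lie between 0 and 1.52%, and NB shares between 3.98 and 18.9%.

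The label was checked against genes that the gate had not used. Of the 177 cells, 173 had a UMI of *COL3A1*, the chain of type III collagen. The summed level of 12 fibroblast markers was 15703 CPM in AD jejunum, 39169 CPM in AD cecum, and 20095 CPM in AD colon, against 32.8, 21.6, and 104 CPM in the *PTPRC* barcodes of the same libraries. All 12 were seen in jejunum and colon. The label stromal cells is kept, with a smooth muscle-like minority described with the clusters. However, the 12 markers include *COL1A1* and *COL3A1*, whose levels can be partly set by the *COL1A2* rule. The gate also leaves out *PTPRC* barcodes by rule, so the gap to them was partly fixed in advance. Cells at the edge of the gate were rare: 11 AD barcodes had exactly 3 UMIs of *COL1A2*, and 7 had exactly 2 and were otherwise inside. The 11 had a median of 5415 UMIs and 2438 CPM of *COL3A1*, and the 7 a median of 2004 UMIs and 1599.8 CPM, compared with 8546 CPM over all 177 and 3.59 CPM in the 8259 AD barcodes with no UMI of the 3 gate genes. A further 28 AD barcodes with at least 3 UMIs of *COL1A2* were left out for *PTPRC* and 6 for *EPCAM*.

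Markers of other cell types were also found. The summed markers of 3 leukocyte classes in AD jejunum and colon gate cells were 1.22 to 26.8% of their level in the *PTPRC* barcodes of the same libraries. The 16 T and NK markers, in 17 rows, summed to 208 CPM in AD jejunum and 213 CPM in AD colon, 3.57% and 1.22% of the level in *PTPRC* barcodes, and to 61.2 and 25.4 CPM in NB. The 10 B and plasma markers summed to 317 and 228 CPM (11.3% and 8.35%; 12.8 and 47.8 CPM in NB), and the 13 myeloid markers to 620.1 and 455 CPM (5.31% and 26.8%; 667 and 252 CPM in NB). Over the clusters of AD cells described below, the myeloid *CTSS* was 157 to 515 CPM and *CD14* 30 to 152 CPM. The other myeloid markers were at most 43.5 CPM in any cluster. Whether the gate cells themselves express *CTSS* and *CD14* was not tested. Of 10 blood endothelial markers, 7 were at 0 in AD jejunum and 6 in AD colon, among them *PECAM1*, *CDH5*, and *CLDN5*. Of 15 epithelial markers, 12 were at 0 in AD jejunum and 2 in AD colon, with sums of 17.3 and 89 CPM (92.1 and 79.2 CPM in NB). Glial, mesothelial, interstitial cell of Cajal, mast, and erythroid sums were at most 111 CPM in either library, and lymphatic endothelial sums were 139 and 151 CPM, of which *PDPN*, also a fibroblast gene, was 126 and 134 CPM.

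Depth and possible doublets differed between the libraries. Total UMIs were 48674267 to 67485845 per AD library and 62529511 to 117505536 per NB library. A gate cell had a median of 7614 UMIs in AD jejunum and 6790.5 in AD colon, compared with 4388 and 7261 in the NB libraries of these tissues, and the gate sums were 230592 UMIs in AD jejunum and 1022991 in AD colon. The Scrublet scores, which liken each barcode to simulated doublets, marked 28 of the 31 AD jejunum cells and 2 of the 142 AD colon cells. Without the marked barcodes 3 jejunum cells were left, too few to compare, so each AD jejunum value rests on cells that are mostly marked, and the part of doublets in it was not tested. The median mitochondrial share was 8.59% in AD jejunum and 6.66% in AD colon, against 3.45 to 5.4% in NB. The 28 pairs of the 8 libraries shared 8 to 42 kept barcodes each, and 1 pair shared 1 barcode of the gate.

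The ranking of single genes given here holds no mitochondrial gene, though the median mitochondrial share was 8.59% in AD jejunum and 6.66% in AD colon. Within it, the largest share of UMIs in AD colon stroma went to *ADAMDEC1*, a metalloprotease-like enzyme of lamina propria fibroblasts, at 3.81% of the gate UMIs. *COL3A1*, the calcification inhibitor *MGP*, the complement protease *CFD*, and the chemokine *CXCL14* followed. In AD jejunum, *CCL11* led with 1.81%, followed by *B2M*, the light chain of class I MHC, *ADAMDEC1*, and the class I gene *JSP*. The levels were uneven between cells. In AD colon, *ADAMDEC1* had a UMI in 134 of 142 cells, and *CCL11* in 57. In AD jejunum, *CCL11* had a UMI in 23 of 31 cells and *MGP* in 5. In the AD *PTPRC* barcodes, which include macrophages and dendritic cells that can also express *ADAMDEC1*, that gene was 135 CPM in colon and *CCL11* 5.18 CPM in jejunum.

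The 4 AD cecum cells differed among themselves and were too few to compare with NB. They had 8584, 6625, 5746, and 1665 UMIs. *MFAP5*, a microfibril protein of adventitial fibroblasts, had 65, 0, 87, and 10 UMIs in these cells in the same order, and *MGP* had 162, 0, 73, and 23. *ADAMDEC1* had 97 UMIs in the second cell, where *MFAP5* and *MGP* were at 0. Thus 3 of the 4 carried the *MFAP5* and *MGP* transcripts, and the other carried *ADAMDEC1*.

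Clustering of the 177 cells separated 6 groups, described here by the genes that lead them. Since the same genes built the clusters, their levels are a description and no test was made. Cluster 1 held 23 of the 31 jejunum cells and 1 colon cell, and 23 of its 24 cells were marked as possible doublets. It was led by *KNG1* (kininogen, the precursor of bradykinin), *CX3CL1*, *CCL11*, *RAMP1*, the bile acid receptor gene *NR1H4*, *TEK*, and *CXCL5*. *CCL11* was 22633 CPM in it and 1899 CPM over the other clusters. *KNG1* was 457 CPM in cluster 1 and 0 in the other 5. No marker list set in the design named it, and it is called the *CCL11*-high cluster.

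Cluster 2, with 32 colon, 4 jejunum, and 1 cecum cells, was subepithelial myofibroblast- or telocyte-like. Its leading genes *SMOC1*, *STMN2*, *FGF9*, *SOX6*, and *NRG1* were accompanied by *PDGFRA* at 3606 CPM, against 0 to 589 CPM elsewhere. Of the 12 rows of the marker list, 2 of them *NRG1*, 8 were at least 2-fold higher in cluster 2. The listed *POSTN* went the other way, at 4.44 CPM in 1 of its 37 cells, against 2398 CPM in cluster 1. *BMP7*, *FOXL1*, and *NPY*, also listed, were found in 3, 1, and 0 cells of cluster 2. Cluster 4, with 20 colon and 3 jejunum cells, was smooth muscle-like, and 8 of 9 smooth muscle markers were at least 2-fold higher than in the others. The listed *DES* was not, at 37.4 CPM in 2 of its 23 cells, against 48.9 CPM in cluster 1. Of 10 pericyte markers, 3 were also at least 2-fold higher: *NDUFA4L2*, *NOTCH3*, and *COX4I2*, in 4, 8, and 4 cells of cluster 4. *ACTA2* (smooth muscle actin) was 12201 CPM and *MYH11* (smooth muscle myosin) 5917 CPM in it, compared with 241 and 252 CPM over the other clusters, and *HHIP*, a Hedgehog-binding protein, was 1535 CPM. *COL1A1*, the type I collagen chain that the gate did not use, had a UMI in 20 of the 23 cells of cluster 4, which stay in all sums unless stated.

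The remaining clusters were nearly all colonic. Cluster 5, with 35 colon and 3 cecum cells, was adventitial or crypt-base fibroblast-like and was led by *MFAP5*, *SHISA3*, and *PCOLCE2*. Of the 11 markers of that list, 5 were at least 2-fold higher in it (*MFAP5*, *CD34*, *C7*, *PI16*, and *SFRP1*). *DPP4* and *RSPO3*, also listed, had no UMI in it, and *GREM1* and *RSPO1* were found in 2 and 4 of its 38 cells. *MFAP5* was 857 CPM and *MGP* 17549.6 CPM in cluster 5. Cluster 6, with 23 colon cells, was led by the lymphocyte-attracting chemokines *CCL19*, *CXCL10*, and *CXCL9*, the acute-phase genes M-SAA3 and *SAA3*, and *UBD*, a ubiquitin-like protein induced by interferon gamma. *CCL19* was 2965 CPM in it against 0 to 111 CPM elsewhere. Only 2 lymphoid stromal markers were 2-fold higher there, so it is called the *CCL19*-high cluster. Cluster 3, with 31 colon cells and 1 jejunum cell, was led by *IGFBP3* (12108 CPM), *TGFBI*, *S100A1*, and *BMP2*, which had UMIs in 30, 29, 18, and 16 of its 32 cells, and stays unnamed. *CENPF* and *CENPE*, genes of mitosis, also led it, but had UMIs in only 3 of its 32 cells.

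The colon library was spread over its clusters, with 22.5% (16 to 30.3%) of the cells in cluster 2, 21.8% (15.3 to 29.5%) in cluster 3, 14.1% (8.82 to 20.9%) in cluster 4, 24.6% (17.8 to 32.6%) in cluster 5, and 16.2% (10.6 to 23.3%) in cluster 6. The jejunum library had 74.2% (55.4 to 88.1%) in cluster 1. *COL3A1* was found in all clusters at 2112 to 13088 CPM, while *C3*, the central complement component, was 315 to 1586 CPM in 5 of them and 15 CPM in the smooth muscle-like cluster. Other settings gave 5 to 9 clusters, with an adjusted Rand index of 0.735 to 0.864 against these.

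**Figure D2:**
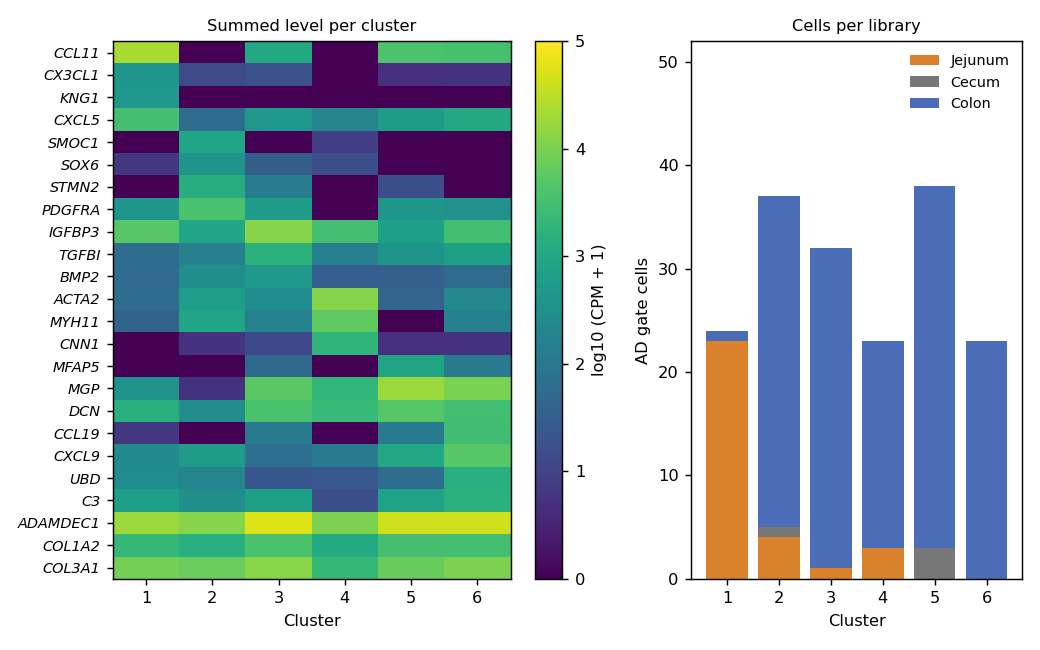
Left, log10 (CPM + 1) of 24 genes in the summed cells of each of the 6 clusters of AD gate cells, as colors. Right, bars of the number of cells per cluster from jejunum, cecum, and colon. Cluster 1 is almost wholly jejunal, and clusters 2 to 6 are mostly or wholly colonic.

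The AD and NB gate cells were compared within jejunum (31 against 2482 cells) and within colon (142 against 191 cells). A gene with a mean of at least 10 CPM over these 4 sums was included, and it was called higher or lower where the log2 ratio of (CPM + 5) was at least 1 in size. This scale understates the change of low genes. A gene near 0 at 1 stage passed this filter of 10 CPM through the other stage, so its call is partly set by the filter. Of 8164 genes, 629 (7.70%) were called higher and 832 (10.2%) lower in AD jejunum, and 712 (8.72%) higher and 523 (6.41%) lower in AD colon. In both tissues the same way, 250 (3.06%) were higher and 210 (2.57%) lower. With Poisson intervals that also had to be apart, the shares were 6.21% and 5.51% in jejunum, 8.19% and 6.03% in colon, and 2.65% and 1.85% in both. The median log2 ratio of all 8164 was 0.01 in jejunum and 0.03 in colon. Under TMM scaling it was -0.23 in jejunum, and the share of higher calls among the jejunum calls was 21.6% in place of 43.1%, so jejunum directions near the threshold depend on the scaling. Of the listed and named genes, 20 of 70 called higher in AD jejunum and 2 of 105 in AD colon lost the call under TMM, and 13 and 3 more were called lower. The same cow gave both AD libraries, so the 2 tissues are not independent. The summed cells also differ in mixture, and a change of level in a cell and a change in the share of a cell type cannot be told apart.

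**Figure D3:**
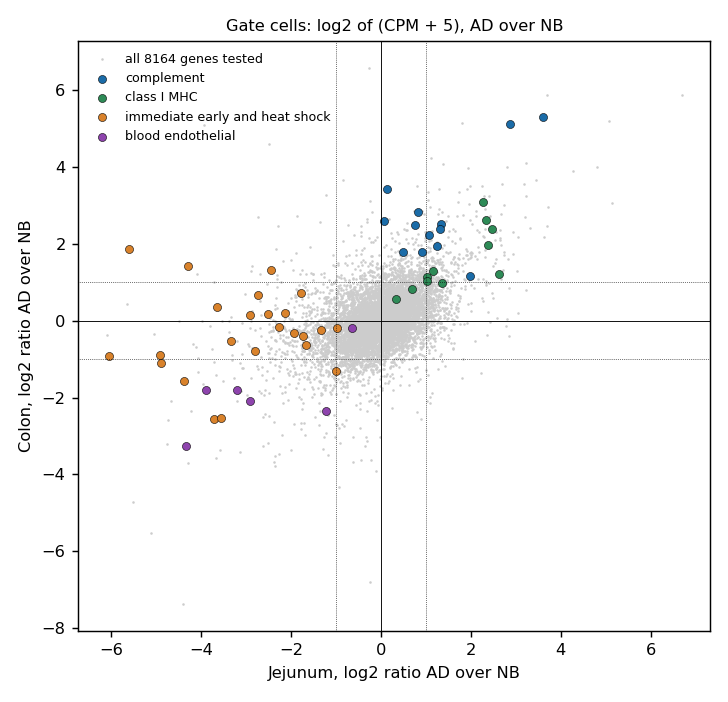
Each point is 1 of 8164 genes, placed by its log2 ratio of (CPM + 5) of AD over NB gate cells in jejunum (horizontal) and in colon (vertical), with dotted lines at ratios of 2-fold. Complement (blue) and class I MHC (green) genes lie to the upper right, blood endothelial genes (purple) to the lower left, and immediate early and heat shock genes (orange) to the left.

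Complement genes were higher in AD jejunum and colon stroma. Of 15 listed genes, 13 were tested, and 7 were called higher in AD jejunum, 13 in AD colon, 7 in both, and none lower, with a median log2 ratio of 1.07 in jejunum and 2.49 in colon. Under TMM, 5 were higher in jejunum and in both. *C3* was 538 CPM (447 to 641) in AD and 68.6 CPM (63.9 to 73.5) in NB jejunum and 775 CPM (722 to 831) in AD and 17.2 CPM (10.9 to 25.8) in NB colon, and 39.8 and 34.5 CPM in NB duodenum and cecum. The AD jejunum and colon values lay above all 4 NB values. The AD level was 7.84-fold (6.44 to 9.49) and 45.1-fold (29.9 to 71.6) that of NB. The 4 AD cecum cells had no UMI of *C3*, in a sum where 3 UMIs would be 133 CPM. *C2*, the protease that forms the *C3* convertase, was 82.4 CPM in AD and 2.21 CPM in NB jejunum, and 194 CPM in AD colon with 0 UMIs in NB colon, at least 86.4-fold higher on a floor of 3 UMIs. *C2* was 29.5 and 8.59 CPM in the *PTPRC* barcodes of these AD libraries, below the gate cells in both.

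The C1 proteases and their inhibitor followed the same order. *C1S* was 2641 CPM in AD and 1048 CPM in NB jejunum and 2610.0 CPM in AD and 454 CPM in NB colon. Its AD level was 2.52-fold (2.32 to 2.73) that of NB in jejunum and 5.75-fold (5.26 to 6.29) in colon. *SERPING1*, the C1 inhibitor, was 5434 CPM in AD and 2269 CPM in NB jejunum and 3939 CPM in AD and 1013 CPM in NB colon, and *CFD*, factor D of the alternative pathway, was 5187 CPM in AD and 2463 CPM in NB jejunum and 7503 CPM in AD and 1593 CPM in NB colon. All 3 were called in both tissues, but under TMM only *C1S* was still called in jejunum, where the log2 ratio was 0.99 for *SERPING1* and 0.81 for *CFD*. In AD cecum, *C1S* and *SERPING1* had a UMI in all 4 cells and *CFD* in 1. *C1R* was 1700.0 CPM in AD and 904 CPM in NB jejunum and 1779 CPM in AD and 514 CPM in NB colon, past the 2-fold threshold in colon and short of it in jejunum. *C7*, of the membrane attack complex, was 1518 CPM in AD and 1441 CPM in NB jejunum and 1454 CPM in AD and 236 CPM in NB colon. Its jejunum values were close to each other. *C4A* was 165 CPM in AD and 95 CPM in NB jejunum and 527 CPM in AD and 89.6 CPM in NB colon, and is uncertain since near-identical C4 copies can share reads.

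Genes of class I antigen presentation were also higher in AD jejunum and colon. Of 13 listed symbols, 12 were found and 11 tested, and 9 were higher and 0 lower in AD jejunum and 8 were higher and 0 lower in AD colon, and 8 were higher in both. The median log2 ratio was 1.35 in jejunum and 1.21 in colon. Leukocyte markers were higher in AD gate cells too: the 3 tested T and NK markers (*CCL5*, *CD247*, and *CD3E*) and the 1 tested B and plasma marker (*JCHAIN*) were called higher in both tissues, while of 8 myeloid markers 1 was higher and 3 lower in both. Of the 3 T and NK markers, 2 had Poisson intervals apart in jejunum and 3 in colon, and of the 3 lower myeloid markers, 2 had them in both. The part of leukocyte RNA in the immune genes described here was not tested. Under TMM the calls of *PSMB8*, *PSMB10*, and *TAPBP* in jejunum and of *TAPBP* in colon were lost, and 5 were higher in both. *B2M* was 15165 CPM (14667 to 15676) in AD and 2742 CPM (2712 to 2772) in NB jejunum and 6754 CPM (6595 to 6915) in AD and 1275 CPM (1215 to 1337) in NB colon. The AD level was 5.53-fold (5.34 to 5.73) and 5.3-fold (5.02 to 5.59) that of NB, and the Poisson intervals of the sums did not overlap in either tissue. Single cells did overlap: 10% of AD cells were at or under 3074 and 1350.5 CPM in jejunum and colon, and 10% of NB cells at or above 5025 and 2933 CPM. In the 4 AD cecum cells, the median of *B2M* was 911 CPM, against 1190 CPM in NB cecum cells. The peptide transporter *TAP1* was 226 CPM in AD and 40.9 CPM in NB jejunum and 186 CPM in AD and 26.1 CPM in NB colon, and the immunoproteasome subunit *PSMB9* was 291 CPM in AD and 55.8 CPM in NB jejunum and 191 CPM in AD and 17.9 CPM in NB colon. The class I heavy chain genes *JSP* and *BOLA* were 9246 CPM in AD and 695 CPM in NB jejunum and 3263 CPM in AD and 417 CPM in NB colon, and 5477 CPM in AD and 1049 CPM in NB jejunum and 1976 CPM in AD and 503 CPM in NB colon, respectively. Class I heavy chain genes are polymorphic and have near-identical copies, so these levels may depend on the alleles of each animal as well as on expression, which was not tested. The levels in AD *PTPRC* barcodes were 11838 and 13187 CPM for *B2M* in jejunum and colon.

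Genes of the interferon response were partly higher. Of 25 listed, 14 were tested, and 7 were higher and 0 lower in AD jejunum and 6 were higher and 1 lower in AD colon, and 4 were higher in both (median 0.99 in jejunum and 0.77 in colon), and the jejunum calls of *ISG15* and *MX1* were lost under TMM. *IFI27*, *GBP2*, and *GBP5*, genes induced by interferon, were among the 4, and *IFI27* was 1023 CPM in AD and 321 CPM in NB jejunum and 438 CPM in AD and 103 CPM in NB colon. *IFITM1* went the other way in colon, with 37.1 CPM in AD and 95.6 CPM in NB colon. Class II MHC genes gave no common direction, since of 14 listed 5 were tested, and 1 was higher and 1 lower in AD jejunum and 3 were higher and 0 lower in AD colon, with 1 higher in both (median -0.24 in jejunum and 1.48 in colon). *UBD* was 338 CPM in AD and 7.32 CPM in NB jejunum and 350.0 CPM in AD and 17.2 CPM in NB colon. However, *UBD* was 2367 and 3723 CPM in the AD *PTPRC* barcodes, and 1 colon cell held 52.2% of the colon UMIs, so the part of leukocyte RNA in it was not tested.

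Chemokines and cytokines differed gene by gene. Of 30 listed, 22 were tested, and 10 were higher and 6 lower in AD jejunum and 14 were higher and 2 lower in AD colon. In both tissues, 7 were higher and 1 was lower, with a median log2 ratio of 0.93 in jejunum and 1.39 in colon. *CCL11* was 18054 CPM (17509 to 18610.4) in AD and 5199 CPM (5158 to 5241) in NB jejunum and 1984 CPM (1899 to 2073) in AD and 50.8 CPM (39.4 to 64.4) in NB colon, and 1365 and 932 CPM in NB duodenum and cecum. The AD level was 3.47-fold (3.36 to 3.58) that of NB in jejunum and 39.1-fold (30.7 to 50.5) in colon, and AD colon lay below NB jejunum. *CXCL5*, a neutrophil attractant, was 2589 CPM in AD and 788 CPM in NB jejunum and 505 CPM in AD and 54.5 CPM in NB colon, and *CXCL9*, a T cell attractant, was 208 CPM in AD and 30.9 CPM in NB jejunum and 1493 CPM in AD and 295 CPM in NB colon. *TNFSF13B* (BAFF), a survival factor of B cells, was 113 CPM (73.7 to 165) in AD and 7.49 CPM (6.01 to 9.23) in NB jejunum and 184 CPM (158 to 212) in AD and 5.98 CPM (2.58 to 11.8) in NB colon, with 38.8 and 5.44 CPM in AD *PTPRC* barcodes. *CXCL11* and *CXCL16* were also higher in both, though their jejunum log2 ratios under TMM were 0.96 and 0.98. *CCL5* was also called higher in both, with 95.4 CPM in AD and 9.28 CPM in NB jejunum and 87 CPM in AD and 0.747 CPM in NB colon, but it was 1991 and 8490.4 CPM in AD *PTPRC* barcodes, and 1 jejunum cell held 72.7% of its UMIs.

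*CXCL13*, which draws B cells into follicles, was the listed chemokine lower in both, partly set by the filter, which it passed through the NB sums. It had no UMI in the 173 AD cells of jejunum and colon, and was 13.3, 168, 42.7, and 224 CPM in NB duodenum, jejunum, cecum, and colon. On a floor of 3 UMIs per library, it was at least 12.9-fold lower in AD jejunum and at least 76.4-fold lower in AD colon. Few NB cells carried it: 135 of 2482 in jejunum and 20 of 191 in colon, where 1 cell held 41.7% of the UMIs. The 6 lymphoid stromal markers, of which 4 were tested, gave 1 higher and 3 lower in AD jejunum and 2 higher and 1 lower in AD colon. *CCL21* had no UMI in the AD cells and 0 in NB colon, and was 107 CPM in NB jejunum.

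**Figure D4:**
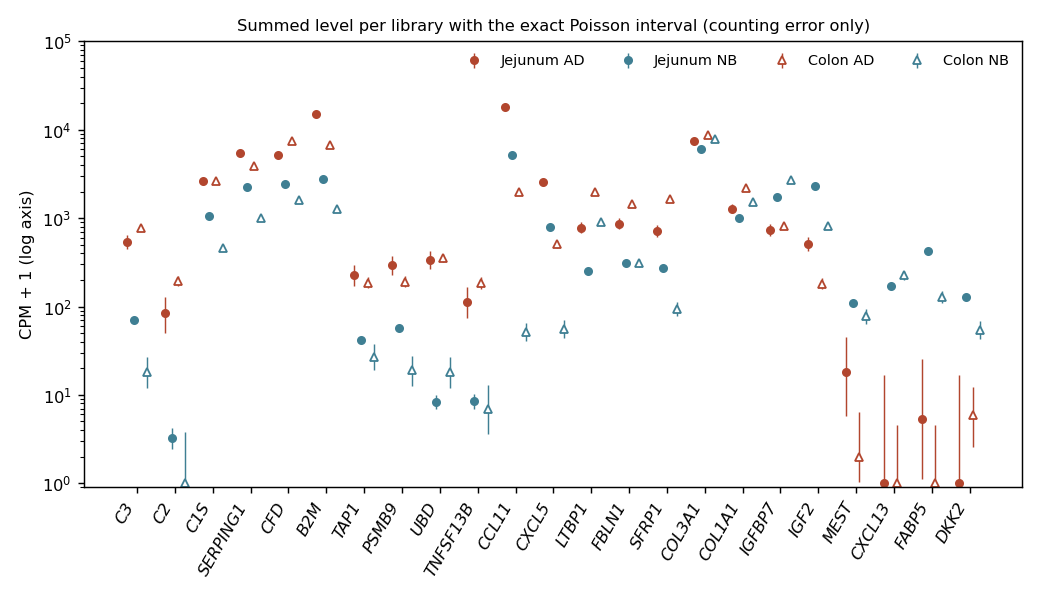
CPM + 1 on a log axis of 23 genes in the summed gate cells of AD jejunum (filled red circles), NB jejunum (filled blue circles), AD colon (open red triangles), and NB colon (open blue triangles), with exact Poisson intervals. From *C3* to *SFRP1* the AD values lie above the NB values of the same tissue, *COL3A1* and *COL1A1* lie close together, and from *IGFBP7* to *DKK2* the AD values lie below.

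Fibrillar collagens are reported with the limit that cells of both stages were chosen for *COL1A2*, so the levels of collagen genes expressed with it can be partly set by the gate. None of 5 tested fibrillar collagen genes was higher, and 1, *COL5A3*, was lower in AD jejunum, where it had no UMI (62.7 CPM in NB). The median log2 ratio was 0.29 in jejunum and 0.15 in colon. *COL3A1* was 7398 CPM (7051 to 7758) in AD and 6049.9 CPM (6006 to 6095) in NB jejunum and 8810.4 CPM (8629 to 8994) in AD and 7939 CPM (7789 to 8091) in NB colon, so AD was 1.22-fold (1.16 to 1.28) and 1.11-fold (1.08 to 1.14) of NB. *COL1A1* was 1279 CPM in AD and 1015 CPM in NB jejunum and 2176 CPM in AD and 1512 CPM in NB colon. Among 8 other interstitial collagens, *COL14A1*, which binds to fibril surfaces, was higher in both, with 182 CPM in AD and 19.3 CPM in NB jejunum and 61.6 CPM in AD and 14.9 CPM in NB colon. *COL12A1*, of the same fibril-associated family, was lower in both, with 39 CPM in AD and 97.6 CPM in NB jejunum and 27.4 CPM in AD and 76.9 CPM in NB colon. Of the 20 genes of collagen processing and crosslinking, 19 were tested, 2 were higher and 2 lower in colon, 1 was lower and none higher in jejunum, and *P4HB*, a subunit of prolyl 4-hydroxylase, was the 1 gene lower in both (191 CPM in AD and 416 CPM in NB jejunum and 241 CPM in AD and 549.7 CPM in NB colon). The medians were -0.11 in jejunum and -0.09 in colon. Of 12 tested basement membrane genes, 4 were lower and none higher in AD jejunum and 1 was lower and 1 higher in AD colon, none in both (medians -0.53 in jejunum and -0.06 in colon). *COL4A1* was 512 CPM in AD and 1599 CPM in NB jejunum and 889.5 CPM in AD and 1628 CPM in NB colon.

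Some elastic fiber and microfibril genes were higher in AD colon. Of 15 tested, 2 were higher and 4 lower in AD jejunum and 6 were higher and 0 lower in AD colon, and 2 were higher in both, with medians of 0.08 in jejunum and 0.83 in colon. Of the genes lower in jejunum, 2 had intervals apart. *LTBP1*, which tethers latent TGF-beta to microfibrils, was 781 CPM (671 to 903) in AD and 252 CPM (243 to 261) in NB jejunum and 1983 CPM (1898 to 2072) in AD and 895 CPM (845 to 947) in NB colon. Fibulin 1, encoded by *FBLN1*, was 867 CPM in AD and 306 CPM in NB jejunum and 1438 CPM in AD and 311 CPM in NB colon. *ELN* (elastin) was 104 CPM in AD and 377 CPM in NB jejunum and 393 CPM in AD and 503 CPM in NB colon, lower in jejunum. Of 8 small leucine-rich proteoglycan genes, 2 were higher and 2 lower in AD jejunum and 3 were higher and 1 lower in AD colon (medians 0.06 in jejunum and 0.59 in colon). *PRELP* was higher in both (78.1 CPM in AD and 18.6 CPM in NB jejunum and 165 CPM in AD and 20.2 CPM in NB colon), and *ASPN* lower in both (4.34 CPM in AD and 58.1 CPM in NB jejunum and 40.1 CPM in AD and 96.4 CPM in NB colon). *KERA*, the keratan sulfate proteoglycan keratocan, was 121 CPM in AD jejunum and 69.4 CPM in AD colon, in 12 and 25 cells. In NB it was 1.53 CPM in jejunum and had no UMI in colon, so AD colon was at least 31-fold higher.

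Of 16 matricellular genes listed, 10 were tested, and 2 were higher and 4 lower in AD jejunum and 3 were higher and 1 lower in AD colon (medians -0.18 in jejunum and 0.40 in colon). *POSTN* (periostin) was higher in both (1917 CPM in AD and 578 CPM in NB jejunum and 418 CPM in AD and 132 CPM in NB colon), and *CCN2*, a target of mechanical and TGF-beta signals, was lower in both (17.3 CPM in AD and 368 CPM in NB jejunum and 246 CPM in AD and 624 CPM in NB colon). *MGP* was lower in AD jejunum and higher in AD colon (546 CPM in AD and 1627 CPM in NB jejunum and 7932 CPM in AD and 2100.3 CPM in NB colon). Of 13 tested matrix proteases and inhibitors, 3 were higher and 3 lower in AD jejunum and 4 were higher and 2 lower in AD colon (medians 0.31 in jejunum and 0.24 in colon). The collagenase gene *MMP1* was 425 CPM in AD and 93.9 CPM in NB jejunum and 112 CPM in AD and 11.2 CPM in NB colon. *ADAMDEC1* was 14089.8 CPM (13609.5 to 14583) in AD and 6692 CPM (6646 to 6739) in NB jejunum and 38080.5 CPM (37703 to 38460.5) in AD and 13906 CPM (13707 to 14107) in NB colon, and 1662 and 19334 CPM in NB duodenum and cecum. The AD level was 2.11-fold (2.03 to 2.18) that of NB in jejunum and 2.74-fold (2.69 to 2.79) in colon, and under TMM the jejunum log2 ratio was 0.81, short of the threshold. In the sum of the 4 AD cecum cells *ADAMDEC1* was 4465 CPM, below NB cecum. *TIMP3*, an inhibitor of metalloproteases, was lower in both, with 21.7 CPM in AD and 84.8 CPM in NB jejunum and 95.8 CPM in AD and 255 CPM in NB colon.

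Signals to the epithelium gave no common direction. Of 29 listed niche genes, 28 were found, and 18 rows were tested, 2 of them *NRG1*. In AD jejunum 2 were higher and 5 lower, and in AD colon 3 were higher and 3 lower. In both, 1 was higher and 3 were lower (medians -0.12 in jejunum and -0.26 in colon, the former 0.05 with genes at 0 at their bound). Of the lower calls, 2 in jejunum and 2 in both had Poisson intervals apart. *SFRP1*, a secreted Wnt antagonist, was the gene higher in both, with 719.9 CPM (615 to 838) in AD and 272 CPM (263 to 282) in NB jejunum and 1654 CPM (1576 to 1735) in AD and 92.6 CPM (77 to 110.4) in NB colon. The AD level was 2.64-fold (2.25 to 3.09) that of NB in jejunum and 17.9-fold (14.9 to 21.6) in colon. The 3 lower in both were *DKK2* and *SFRP2*, which bind Wnt receptors or ligands, and *BMP3*, and the jejunum intervals of *SFRP2* overlapped. *DKK2* had 0 UMIs in AD jejunum and 5 in AD colon, at 0 CPM in AD and 128 CPM in NB jejunum and 4.89 CPM in AD and 53.8 CPM in NB colon. It was at least 9.85-fold lower in AD jejunum, and the NB level was 11-fold (4.5 to 34.9) that of AD in colon. *DKK2* passed the filter through the NB sums, so its lower call is partly set by the filter. *BMP4* and *BMP5*, ligands that oppose stem cell renewal, were 403 CPM in AD and 709.8 CPM in NB jejunum and 842 CPM in AD and 1177 CPM in NB colon, and 390.3 CPM in AD and 295 CPM in NB jejunum and 527 CPM in AD and 649 CPM in NB colon, all within 2-fold, except that *BMP4* was called lower in jejunum under TMM. *SOSTDC1*, an antagonist of BMP and Wnt signals that is not in this list but was also lower in both, had 0 UMIs in AD jejunum and 4 in AD colon, with 0 CPM in AD and 58.6 CPM in NB jejunum and 3.91 CPM in AD and 102 CPM in NB colon.

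*IGF2* and several genes of cell division were lower in AD, while fetal growth genes as a group went both ways. Of 22 listed fetal growth and IGF genes, 20 were found and 12 tested, and 2 were higher and 4 lower in AD jejunum and 4 were higher and 4 lower in AD colon, with 1 higher and 3 lower in both (medians -0.35 in jejunum and 0.10 in colon). *IGF2*, the fetal growth factor, was 512 CPM (424 to 613) in AD and 2329.6 CPM (2302 to 2357) in NB jejunum and 181 CPM (156 to 209) in AD and 809.6 CPM (762 to 859) in NB colon. The NB level was 4.55-fold (3.8 to 5.5) that of AD in jejunum and 4.48-fold (3.83 to 5.26) in colon, and NB duodenum and cecum were at 2569.6 and 1141 CPM. The median cell did not show this difference, with 409.5 CPM in AD and 445 CPM in NB jejunum and 0 in both colon groups. In jejunum *IGF2* had a UMI in 71% of AD and 63.7% of NB cells, and in colon in 29.6% and 32.5%. The upper 10% of cells began at 935 CPM in AD and 8821 CPM in NB jejunum, and at 618 and 3422 CPM in colon. The imprinted gene *MEST* was 17.3 CPM (4 UMIs) in AD and 109 CPM in NB jejunum, and 0.978 CPM (1 UMI) in AD and 76.9 CPM in NB colon, where the NB level was 78.7-fold (13.8 to 3138) that of AD. *IGFBP7* was 733 CPM in AD and 1752 CPM in NB jejunum and 805 CPM in AD and 2725 CPM in NB colon, and *IGFBP5*, a gene also of the smooth muscle-like cluster, was higher in both (73.7 CPM in AD and 27.3 CPM in NB jejunum and 375 CPM in AD and 45.6 CPM in NB colon).

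Of 27 proliferation genes, 11 were tested, and 7 were lower in AD jejunum, 3 in AD colon, and 3 in both (*PCNA*, *MCM2*, and *TPX2*), with none higher. The median log2 ratio was -1.66 in jejunum and -0.67 in colon, and with genes at 0 set to their bound -1.45 in jejunum. Levels were low and intervals wide: of the 7, 4 had intervals apart. Of the 11, 2 had no UMI in AD jejunum and passed the filter through the other sums, so the count and median are partly set by the filter. *PCNA*, the sliding clamp of DNA replication, was 34.7 CPM (15 to 68.4) in AD and 120.1 CPM (114 to 127) in NB jejunum and 49.9 CPM (37.1 to 65.5) in AD and 109.8 CPM (92.8 to 129) in NB colon. Under thinning to 1000 UMIs per cell the jejunum median was -0.34, and 4 further settings moved it to between -0.74 and -1.02.

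Among the genes lower in both, several had no or nearly no UMI in AD stroma. These passed the filter through the NB sums, so their lower calls are partly set by the filter. The part of RNA of other cells in their NB levels was not tested. *FABP5*, a fatty acid carrier, had 1 UMI in AD jejunum and 0 in AD colon, with 4.34 CPM in AD and 423 CPM in NB jejunum and 0 CPM in AD and 127 CPM in NB colon. The NB level was 97.5-fold (17.5 to 3853) that of AD in jejunum and at least 43.3-fold higher in colon. *GAL*, the neuropeptide galanin, and *PRSS2*, an anionic trypsin gene, had no UMI in either AD sum and were 92.3 and 54.8 CPM in NB jejunum and 59.8 and 46.3 CPM in NB colon. *RGS4*, a brake on G protein signaling, had 0 UMIs in AD jejunum and 12 in AD colon (0 CPM in AD and 38.8 CPM in NB jejunum and 11.7 CPM in AD and 174 CPM in NB colon). *CCL14* had 0 and 3 UMIs (0 CPM in AD and 130.2 CPM in NB jejunum and 2.93 CPM in AD and 68.7 CPM in NB colon). A row with the symbol *PLA2G2A*, which other rows share, had 1 and 0 UMIs, at 4.34 CPM in AD and 52.6 CPM in NB jejunum and 0 CPM in AD and 42.6 CPM in NB colon.

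Of the 10 genes with the highest ratios among those higher in both, ranked by the lower of the 2 tissue ratios, *C2*, *C3*, *UBD*, *KERA*, *TNFSF13B*, *JSP*, and *CCL5* are given above. M-SAA3, an acute-phase serum amyloid gene with near-identical copies, was 173 CPM in AD and 8.77 CPM in NB jejunum, and 287 CPM in AD colon with 0 UMIs in NB colon. It was found in 8 and 17 AD cells. *CA3*, a muscle and fat carbonic anhydrase, was 329.6 CPM (259.7 to 413) in AD and 25.6 CPM (22.7 to 28.6) in NB jejunum and 428 CPM (389 to 470.2) in AD and 29.1 CPM (20.7 to 39.8) in NB colon, in 18 and 81 AD cells, and 0.426 and 2.65 CPM in AD *PTPRC* barcodes. *JCHAIN*, the joining chain of secreted immunoglobulin, was 286 CPM in AD and 3.24 CPM in NB jejunum and 219 CPM in AD and 21.7 CPM in NB colon, but 2612 and 2513 CPM in AD *PTPRC* barcodes and 60067 CPM in AD barcodes without the 3 gate genes. It belongs to plasma cells, and the part of their free RNA in the AD value was not tested.

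Blood endothelial markers were mostly lower in the AD gate cells. Of 10 such markers, 6 were tested, and 5 were lower in AD in both tissues, with medians of -3.05 in jejunum and -1.95 in colon (-1.29 and -1.80 with genes at 0 at their bound). Of the 6, 4 had no UMI in AD jejunum and 2 had none in AD colon. These passed the filter through the other sums, so the count and medians are partly set by the filter. The summed level of all 10 was 364 CPM in AD and 1117 CPM in NB jejunum, and 203 and 769 CPM in colon. *EGFL7*, secreted by endothelial cells, had no UMI in AD and was 96.2 and 42.6 CPM in NB jejunum and colon. The part of a different share of vessel cells, or of their free RNA, in the other differences was not tested. Of 9 tested pericyte markers, 1 was higher and 3 lower in AD jejunum and 0 were higher and 6 lower in AD colon, and of the lower ones 1 in jejunum and 6 in colon had intervals apart. *RGS5*, often used for pericytes, was 1531 CPM in AD and 314 CPM in NB jejunum and 1130.0 CPM in AD and 792 CPM in NB colon, with 1.83 and 5.57 CPM in AD *PTPRC* barcodes, and was found in 30 of 31 and 121 of 142 AD cells. The potassium channel gene *KCNJ8*, also of pericytes, was 8.67 CPM in AD and 65.6 CPM in NB jejunum and 0.978 CPM in AD and 71 CPM in NB colon. After thinning to 1000 UMIs per cell, *RGS5* was found in 73.3% of AD jejunum and 54.9% of AD colon gate cells, against 0% and 0.201% of *PTPRC* barcodes. For this, only the first 1000 *PTPRC* barcodes of each library were thinned, and any under 1000 UMIs were dropped. Most AD cells thus held *RGS5*, while *KCNJ8* was near 0.

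Of 12 tested contractile genes, 7 were called lower and 1 higher in jejunum, and 1 lower and 1 higher in colon (medians -1.14 in jejunum and -0.37 in colon). The colon median was -1.57 without smooth muscle cells and -1.36 in cells with *PDGFRA*. *TAGLN* was lower in both (4.34 CPM in AD and 49.8 CPM in NB jejunum and 28.3 CPM in AD and 91.9 CPM in NB colon). *ACTA2* was 1314 CPM in AD and 2484 CPM in NB jejunum and 1562 CPM in AD and 1851 CPM in NB colon, and was called lower in jejunum under TMM. Of 12 tested genes of lipid handling and secretion, 1 was higher and 6 lower in AD jejunum and 3 were higher and 1 lower in AD colon (medians -1.10 in jejunum and 0.31 in colon, the former -0.68 at the bound). Of 9 retinoid genes, none was called in jejunum (2 lower under TMM) and 3 were higher and 1 lower in colon (medians 0.61 in jejunum and 0.45 in colon), the lower one with overlapping intervals. Retinal dehydrogenase *ALDH1A1*, which makes retinoic acid, was 359.9 CPM in AD and 235 CPM in NB jejunum and 441 CPM in AD and 104 CPM in NB colon.

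Immediate early and heat shock genes set the 2 tissues apart. Of 26 listed, 24 were tested, and in AD jejunum 22 were lower and none higher (median -2.76, or -2.47 at the bound). In AD colon 5 were lower and 3 higher (median -0.28). These genes respond within a short time to growth signals, stress, and heat. *JUN* was 139 CPM (94.9 to 196) in AD and 2796 CPM (2766 to 2827) in NB jejunum and 2863 CPM (2760.4 to 2969) in AD and 1054 CPM (999.6 to 1110.3) in NB colon, and 1811 and 989 CPM in NB duodenum and cecum. AD jejunum was the lowest of the 6 sums, while the intervals of AD colon and NB jejunum, the highest, overlapped. *FOSB* had no UMI in AD jejunum and was 236 CPM in NB jejunum, 185 CPM in AD colon, and 47.1 CPM in NB colon. *HSPA1A* was 984 CPM in AD and 6522 CPM in NB jejunum and 2849 CPM in AD and 1770.2 CPM in NB colon. *HSPA6*, *DNAJB1*, *NR4A1*, *MYC*, and *HSP90AB1* were lower in colon, of which *HSP90AB1* fell just short of the threshold in jejunum and passed it under TMM. The AD jejunum and colon were digested with the same kit for the same time, and the part of dissociation in this difference was not tested.

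Among the AD cells, jejunum and colon were compared directly. Of 8059 genes with a mean of at least 10 CPM, 567 (7.04%) were higher in jejunum and 731 (9.07%) in colon. The same comparison of NB gate cells gave 320 (4.02%) and 215 (2.70%) of 7953. Of the AD genes higher in jejunum, 118 were also called in NB, which is 20.8% of the AD list and 36.9% of the NB list. Of those higher in colon, 88 were shared, or 12.0% and 40.9%. The AD cells come from different clusters in the 2 tissues, and 28 of the 31 jejunum cells were marked as possible doublets, so tissue, mixture, and marking cannot be told apart.

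The genes with the largest ratios toward AD jejunum were *KNG1*, *TM4SF18*, *IGFBP2*, *CX3CL1*, and *NR1H4*. *KNG1* was 364 CPM in 23 jejunum cells, with no UMI in colon, at least 124-fold higher on the floor of 3 UMIs. In NB it was 127 CPM in jejunum and 2.24 CPM in colon, the same order. *NR1H4*, the bile acid receptor FXR, was 182 CPM in AD jejunum and 1.96 CPM in AD colon, a ratio of 93.2-fold (24.2 to 794) that rests on 2 colon UMIs, and 48 and 8.96 CPM in NB. *CX3CL1*, a membrane-bound chemokine, was 343 CPM in AD and 68.7 CPM in NB jejunum and 7.82 CPM in AD and 27.6 CPM in NB colon, 43.8-fold (21.2 to 105) higher in AD jejunum than in AD colon. *IGFBP2* was 191 CPM in AD and 86.6 CPM in NB jejunum and 1.96 CPM in AD and 22.4 CPM in NB colon, with its jejunum UMIs in 4 cells, and *TM4SF18* was 156 CPM in 5 AD jejunum cells and had no UMI in AD colon. Both are thus carried by few cells.

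Toward AD colon the largest ratios were those of *THBS4*, *CCL19*, *S100A1*, *NT5E*, and *HOXA9*. *THBS4* (thrombospondin 4) was 615 CPM in 60 of 142 AD colon cells and had no UMI in AD jejunum, at least 47.3-fold higher, and was 1.02 and 1.49 CPM in NB jejunum and colon. It was 0 and 5.6 CPM in NB duodenum and cecum, so AD colon stood above all 4 NB libraries. *CCL19* was 4.34 CPM in AD and 32.3 CPM in NB jejunum and 702 CPM in AD and 231 CPM in NB colon, 162-fold (29 to 6401) higher in AD colon than in AD jejunum. *NT5E*, the ectonucleotidase CD73, was 289 CPM in AD colon and 0 in AD jejunum, and 111 and 2.47 CPM in NB colon and jejunum. *S100A1*, a calcium-binding protein, was 350.0 CPM and 0 in AD, and 9.71 and 22.9 CPM in NB colon and jejunum, the opposite order.

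Some HOX genes, which encode position along the body axis, differed between the 2 regions. Of 39 listed, 15 were tested against NB, and 3 were higher and 0 lower in AD jejunum and 2 were higher and 4 lower in AD colon, none in both the same way (medians 0.28 in jejunum and -0.22 in colon, the former 0.99 with genes at 0 at their bound). Of the higher calls, 2 in jejunum and 1 in colon had Poisson intervals apart, and under TMM 1 was still called higher in jejunum and 1 in colon. *HOXA9*, *HOXA10*, and *HOXA11* were 208, 70.4, and 88 CPM in AD colon and 117, 108, and 103 CPM in NB colon, and had no UMI in AD jejunum. In NB jejunum they were 0.767, 0.0852, and 0 CPM. *HOXA5* was found in both regions (121 CPM in AD and 80.8 CPM in NB jejunum and 117 CPM in AD and 50.8 CPM in NB colon). *HOXC6* and *HOXC8* were 108 and 47.7 CPM in AD jejunum, 46.5 and 10.1 CPM in NB jejunum, 8.8 and 0 CPM in AD colon, and 45.6 and 8.96 CPM in NB colon. Among 16 tested rows of mesenchymal transcription factors, 3 were higher and 0 lower in AD jejunum and 6 were higher and 0 lower in AD colon (medians 0.51 in jejunum and 0.62 in colon). The 3 higher in both were *TWIST2* and the 2 rows of *ZEB2*, of which 1 row of *ZEB2* was still called in jejunum under TMM. Of these 3, 2 had Poisson intervals apart in both tissues. *TWIST1* was 141 CPM in AD and 29.9 CPM in NB colon and had no UMI in AD jejunum. *TCF21* and *FOXF1*, factors of gut mesenchyme, were 742 CPM in AD and 433 CPM in NB jejunum and 664 CPM in AD and 427 CPM in NB colon, and 373 CPM in AD and 214 CPM in NB jejunum and 405 CPM in AD and 351 CPM in NB colon, all within 2-fold.

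**Figure D5:**
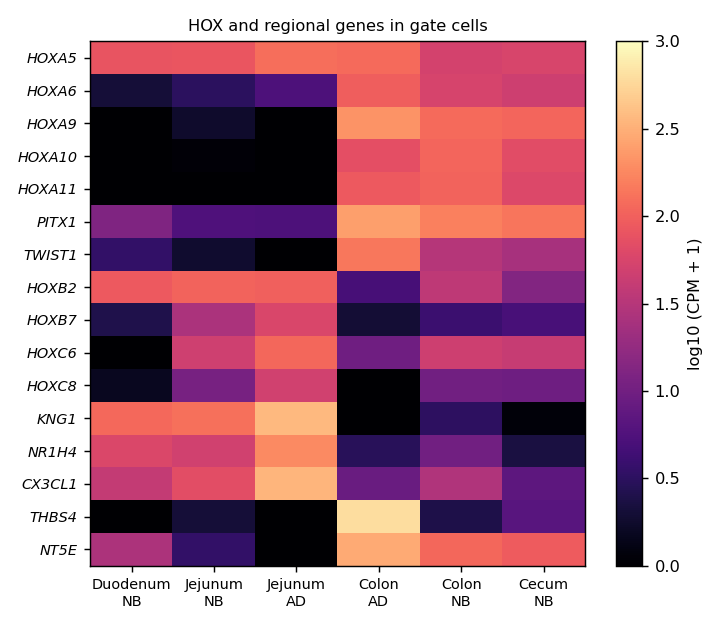
Colors give log10 (CPM + 1) of HOX and other regional genes in the summed gate cells of NB duodenum, NB jejunum, AD jejunum, AD colon, NB colon, and NB cecum, 1 library each. *HOXA9*, *HOXA10*, and *HOXA11* are bright in both colon libraries and NB cecum and dark in NB duodenum and in both jejunum libraries, while *KNG1* and *NR1H4* are brightest in AD jejunum and *THBS4* in AD colon.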

How the data were processed

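Single-cell RNA-seq libraries of AD and NB duodenum, jejunum, cecum, and colon were used, 8 of the 15 given here. The authors aligned and counted the reads with CellRanger 3.1.0 on ARS-UCD1.2, and the deposited values are whole UMI counts per gene and barcode, without normalization and with 27270 genes in every library. The study's filters on genes and UMIs were applied, and its limit of 40% mitochondrial UMIs was an alternative. DoubletFinder, named in the study, was not run. Barcodes with the highest Scrublet scores, 0.8% per 1000 barcodes, were marked as possible doublets but left in.

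Gate cells were summed per library and scaled to CPM. Genes with a mean of at least 10 CPM over the compared sums were called at a log2 ratio of 1 with a pseudocount of 5 CPM. The design foresaw all 4 tissues, but AD duodenum had 0 and AD cecum 4 cells, so jejunum and colon were compared, the filter used their 4 sums, and the region comparison set jejunum against colon. The intended comparison of kits in genes was dropped. The members and lists were chosen with earlier results of these data known. Genes named are members of the lists, the first 10 per direction by the lower of the 2 ratios among genes called in both tissues, the first 5 per direction between AD jejunum and colon, and the gate genes, leaving out mitochondrial genes and rows without a symbol. *RAMP1*, *TEK*, *SMOC1*, *STMN2*, *FGF9*, *HHIP*, *SHISA3*, *SAA3*, *TGFBI*, and *CENPE* were named from the leading genes of the clusters after their values were seen. A gene with no UMI was compared with a floor of 3 UMIs per library.

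AD gate cells were clustered (log-scaled counts, variable genes, principal components, and the Leiden method), and a cluster was named from markers only with at least 3 of a list 2-fold higher and 1 in its leading 10 genes. Alternatives covered the gate, filters, pseudocount, scaling (TMM from edgeR 4.0.16), thinning to 1000 UMIs, and cells. The code of the comparison was run on simulated Poisson counts with large planted changes. These held no mixture of cells, doublets, or spread between cells, so the run checks the calculation only. Python 3.11.15, scanpy 1.11.5, SciPy 1.17.1, pandas 2.3.3, and R 4.3.3 were used.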

Additional observations from a re-analysis of the deposited data

Results flagged for a closer look

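Listed genes were set aside here when the AD over NB log2 ratio passed the threshold in opposite directions in jejunum and colon, with 1 library on each side, so the difference between the tissues was not tested. Of 8164 genes, 50 were of this kind, 39 lower in AD jejunum and higher in AD colon and 11 the reverse, and 14 of them belong to the lists. The largest gap was that of *FOSB*, with a colon minus jejunum difference of 7.46 on the log2 scale, followed by *JUN* at 5.72. *KLF4*, another immediate early gene, differed by 3.76. *JUN* was 139 CPM in AD and 2796 CPM in NB jejunum and 2863 CPM in AD and 1054 CPM in NB colon.

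The neutrophil-attracting chemokine genes *CXCL3* and *GRO1* differed by 5.43 and 5.29, and *CXCL3* was 82.4 CPM in AD and 576 CPM in NB jejunum and 134 CPM in AD and 16.4 CPM in NB colon. *CCL19* differed by 3.58, *MGP* by 3.48, *MFAP5* by 3.02, *PTGIS* (prostacyclin synthase) by 3.72, and the protease gene *ADAMTS1* by 3.26. The jejunum intervals of *MFAP5* and *PTGIS* overlapped between stages, so their jejunum direction is within counting error. In the other direction, *CX3CL1* differed by -3.59, *HOXC8* by -3.28, *IGFBP2* by -3.07, and *HOXC6* by -3.01, being higher in AD jejunum and lower in AD colon than in NB. Under TMM scaling the jejunum calls of *IGFBP2* and *HOXC6* were lost. In AD jejunum 28 of 31 cells were marked as possible doublets, and 2 of 142 in colon, and the part of this in the differences was not tested.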

How the results depend on the processing

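No paired analysis was possible because each group had 1 library and no comparison comes from a test. No recomputed ratio of the 20 genes that lead the stage comparison, 10 per direction, and no median of at least 2-fold in size of the 22 lists of function changed sign under the alternatives run, and the medians of marker lists were not recomputed. Other named genes were recomputed singly under TMM alone. Of 680 recomputed ratios of these 20 genes, 675 kept their sign, 5 were at 0, and 672 stayed past 2-fold, while 121 moved by more than 1.5-fold. The 20 were chosen from these data for their large ratios in both tissues. Their sign and size were thus partly fixed in advance and say little about the other calls. Of 746 recomputed medians of the lists of function, 716 moved by less than 1.5-fold.

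Gate counts moved as follows. With at least 1 UMI of *COL1A2* there was 1 cell in AD duodenum, 740 in NB duodenum, and 1626 in NB cecum, and with at least 5 UMIs there were 288 in NB duodenum. Under 10% mitochondrial UMIs left 20 cells in AD jejunum and 2 in AD cecum, and leaving out marked doublets left 3 in AD jejunum.

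Counts of genes depended on the filter, the pseudocount, and depth. With a pseudocount of 20 CPM, 257 were higher and 357 lower in AD jejunum, 328 and 243 in colon, 107 and 84 in both, and 237 and 339 toward AD jejunum and AD colon. At a mean of 50 CPM the counts were 220, 257, 301, and 230, and 119 and 85 in both, since fewer genes were tested. Cells thinned to 1000 UMIs gave 1708 and 2672 in jejunum, 1438 and 1188 in colon, and 526 and 475 in both. Without a filter, 1346 were lower in AD jejunum and 1391 higher in AD colon than in AD jejunum. Under TMM 342 were higher in AD jejunum, with NB cells drawn down to the AD number 1169 were, and with intervals required to be apart 450 were lower there. Called in a single tissue, 629 and 832 genes passed without colon, and 712 and 523 without jejunum.

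The median of proliferation genes in jejunum was -1.02 in cells with *PDGFRA*, -0.74 with NB cells drawn down, -0.89 with the pseudocount of 20 CPM, -0.84 as a mean over cells, and -0.34 after thinning, and in colon -1.43 without the upper limit on genes. That of immediate early and heat shock genes in jejunum was -2.17 with the pseudocount of 20 CPM. Medians of the other lists that moved by more than 1.5-fold were as follows. With NB cells drawn down, those in jejunum were -0.76 for proteoglycans, -1.18 for matricellular, 0.63 for class II MHC, and -0.01 for retinoid genes. After thinning they were -1.20 for basement membrane, -1.26 for niche, and -0.23 for lipid genes in jejunum, and 0.23 for class II MHC and 1.61 for retinoid genes in colon. In cells with *PDGFRA*, those in colon were 1.23 for proteoglycans, 2.33 for class II MHC, and -1.36 for contractile genes, the last -1.57 without smooth muscle cells. Without a filter, chemokines were at 0.12 and retinoid genes at -0.28 in jejunum, and class II MHC at 0.22 in colon (0.78 with the pseudocount of 20 CPM). At a mean of 50 CPM, lipid genes were at -0.21 in jejunum and retinoid genes at 1.47 in colon. With at least 1 UMI of *COL1A2*, class II MHC was at -0.92, and with at least 5 UMIs, contractile genes were at -2.39 in jejunum. In colon, interferon genes were at 1.48 without endothelial cells and HOX genes at 0.44 as a mean over cells. The causes were not tested. The use of *PDGFRA*, the draw of NB cells, the rule on intervals, and the removal of endothelial or muscle cells were chosen after seeing the data. Leaving out gate cells with any UMI of 11 markers of other cells was not run for gene comparisons, because 0 AD jejunum cells and 1 AD colon cell remained. Leaving out marked doublets was not run for them either, because 3 AD jejunum cells remained. In colon 140 AD and 181 NB cells remained, and that comparison was not run. With 230592 UMIs, 1 UMI in AD jejunum was worth 4.34 CPM, which limits every low gene there.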
